A study of Mus musculus with 20 samples.

Results

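The circadian clock genes are 10 of the 54532 genes counted: Per1, Per2, Per3, Cry1, Cry2, Nr1d1, Nr1d2, Dbp, Ciart and Arntl. They were taken by symbol as a named set, by a rule that used no measured value. Earlier results of these data were known when the set was chosen. All 10 were in the deposited counts and passed the low-count filter in every comparison. Expression was measured by RNA sequencing of hypothalamus from male C57BL/6J mice, in 20 libraries of poly-A RNA. Acute control (5 libraries) and acute Gly-Low (4 libraries) were 4 months old and had eaten a control diet or Gly-Low, a diet made to lower glycation, over 1 week. Old control (4 libraries) and old Gly-Low (3 libraries) were 25 months old and had eaten these diets for 5 months, and young control (4 libraries) were 3 months old with 1 week of control diet. The labels give no hour of tissue collection. They also do not say whether each library is a separate animal, so p-values measure the spread between these samples, which may be technical.

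The clock is a feedback loop of transcription. BMAL1, the product of Arntl, pairs with CLOCK or NPAS2 and activates genes with E-boxes in their regulatory DNA, among them the Per and Cry genes, Nr1d1, Nr1d2, Dbp and Ciart; the PER and CRY proteins and CIART then act back on BMAL1 as repressors, and the nuclear receptors encoded by Nr1d1 and Nr1d2 repress Arntl. In a tissue sampled around the clock, Arntl therefore peaks opposite in phase to Per, Nr1d1 and Dbp transcripts. The hypothalamus holds the suprachiasmatic nucleus, the body's central pacemaker, beside many nuclei with weaker rhythms of their own.

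Per1, a period repressor that also responds within minutes to light and hormones, is ENSMUSG00000020893 at chr11:69095217-69109960 on the plus strand of GRCm38. Per2 (ENSMUSG00000055866, chr1:91415982-91459324) and Per3 (ENSMUSG00000028957, chr4:151003652-151044665) lie on the minus strand and encode the other period proteins. The cryptochrome repressors Cry1 (ENSMUSG00000020038, chr10:85131700-85185064) and Cry2 (ENSMUSG00000068742, chr2:92403646-92434043) are also minus-strand genes. Nr1d1 (ENSMUSG00000020889, chr11:98767932-98775333) encodes REV-ERB-alpha and Nr1d2 (ENSMUSG00000021775, chr14:18204054-18239127) its relative REV-ERB-beta. Dbp (ENSMUSG00000059824, chr7:45705088-45710203, plus strand) encodes an activator that binds D-boxes, and Ciart (ENSMUSG00000038550, chr3:95878503-95882251, minus strand) a repressor of CLOCK and BMAL1. Arntl (ENSMUSG00000055116, chr7:113207465-113314126, plus strand) encodes the activator BMAL1.

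The library preparation did not mark strand, and where genes overlap on opposite strands their reads cannot be separated. Nr1d1 overlaps Thra, a thyroid hormone receptor gene on the opposite strand whose counts over all libraries came to 1057% of those of Nr1d1. Sphk2, opposite Dbp, had 21.4% of the counts of Dbp. For Ciart the opposite gene C920021L13Rik had 11.1%, and the opposite genes at Cry2 and Arntl had under 1% each. Per3 overlaps Camta1 on its own strand, whose counts came to 1342% of those of Per3. Per1, Per2, Cry1 and Nr1d2 overlap no annotated gene.

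RefSeq start sites for GRCm38.p6 gave a window of the 250 bases before the start for 9 of the 10 genes, all but Per2. There were 11 windows, as Per1 and Arntl had 2 start sites each. The windows were searched on both strands for the E-box CACGTG, its variant the E'-box, which is CACGTT and reads as AACGTG from the opposite side, the D-box TTATGTAA, the ROR element TAGGTCA, which REV-ERB proteins share with ROR receptors, and the cAMP response element TGACGTCA. No match overlaps another in the windows printed here. The E-box was in a window of 3 genes (Per1, Cry1 and Ciart), against 6.02% of 32851 windows of the same length over all genes, and the E'-box in those of 3 genes (Cry1, Cry2 and Nr1d1), against 3.85%. The D-box was in that of Per3, against 0.819%. The E-box of Per1 was in the window of start site 1 and not in that of start site 2. The shares over all genes count windows, while the members are counted as genes. The ROR element and the cAMP response element were in 0 members' windows, against 2.23% and 1.55%. A match describes the letters in this window and is not a measured binding site.

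Windows of 3 of the genes that fell under the acute diet (Per3, Cry2 and Nr1d1) and of both genes that hold an E-box and did not pass the test there (Cry1 and Ciart) follow, 5′ to 3′ on the gene's own strand, with the matches in capitals. They lie at chr4:151044666-151044915 (Per3), chr2:92434070-92434319 (Cry2), chr11:98775378-98775627 (Nr1d1), chr10:85185055-85185304 (Cry1) and chr3:95882229-95882478 (Ciart), all on the minus strand. Per3 has its D-boxes 205 and 158 bases before the start, counted at the first base of the match. The E'-box of Cry2 begins 166 and that of Nr1d1 28 bases before the start. Cry1 has an E'-box at 79 and an E-box at 60 bases, and Ciart has E-boxes at 116, 58 and 44 bases.
Per3: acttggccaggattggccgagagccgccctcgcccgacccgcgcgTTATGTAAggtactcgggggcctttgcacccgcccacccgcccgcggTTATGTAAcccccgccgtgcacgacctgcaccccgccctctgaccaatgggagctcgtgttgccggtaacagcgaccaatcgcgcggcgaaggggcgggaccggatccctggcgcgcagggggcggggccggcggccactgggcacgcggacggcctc
Cry2: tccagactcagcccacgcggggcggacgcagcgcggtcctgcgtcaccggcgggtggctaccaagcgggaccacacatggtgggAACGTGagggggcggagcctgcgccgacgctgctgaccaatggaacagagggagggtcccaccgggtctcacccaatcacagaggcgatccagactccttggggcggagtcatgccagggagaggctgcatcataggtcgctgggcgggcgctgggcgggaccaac
Nr1d1: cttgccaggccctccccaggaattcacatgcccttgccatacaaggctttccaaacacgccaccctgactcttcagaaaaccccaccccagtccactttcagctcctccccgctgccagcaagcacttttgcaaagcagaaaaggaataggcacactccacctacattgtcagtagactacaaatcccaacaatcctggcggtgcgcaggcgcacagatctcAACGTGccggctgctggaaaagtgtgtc
Cry1: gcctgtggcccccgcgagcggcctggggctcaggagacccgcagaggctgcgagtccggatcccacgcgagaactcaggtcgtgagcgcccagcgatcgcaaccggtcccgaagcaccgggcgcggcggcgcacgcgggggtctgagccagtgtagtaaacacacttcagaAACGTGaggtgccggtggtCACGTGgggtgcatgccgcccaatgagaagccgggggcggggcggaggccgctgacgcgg
Ciart: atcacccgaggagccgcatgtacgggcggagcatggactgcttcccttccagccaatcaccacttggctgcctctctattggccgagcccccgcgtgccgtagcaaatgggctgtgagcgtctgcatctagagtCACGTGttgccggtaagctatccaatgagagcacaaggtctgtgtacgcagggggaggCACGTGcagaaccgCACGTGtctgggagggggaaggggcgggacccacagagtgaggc

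Per unit of transcript length the genes spanned a wide range of levels. Median RPKM (reads per kilobase of transcript, scaled to library size) over the 20 libraries were 0.885 for Per2, 1.28 for Per1, 2.98 for Per3, 5.20 for Ciart, 6.23 for Nr1d1, 7.58 for Cry1 and 8.87 for Arntl. Cry2 (19.1), Dbp (36.7) and Nr1d2 (38.8) stood above these. Every pair of neighbours in that order overlapped in its range over the libraries, from 0.0800 to 2.75 RPKM for Per2 up to 30.4 to 60.1 RPKM for Nr1d2. The genes also differed in how far libraries of one group spread. The pooled within-group SD on the log2 CPM scale (CPM being a gene's count relative to the library total, scaled by TMM) was 1.07 for Per2, 1.03 for Per1 and 0.85 for Per3, at the 91.4th, 89.3rd and 78.4th percentiles of 19061 genes, whose median was 0.44. Arntl had an SD of 0.14 (percentile 2.78), and Cry1 and Nr1d2 of 0.21 (percentile 13.7 each). Nr1d1 (0.73), Cry2 (0.58), Dbp (0.45) and Ciart (0.35) lay between. From the lowest to the highest of all libraries, scaled CPM ranged 34.4-fold for Per2, 19.7-fold for Per1 and 1.67-fold for Cry1.

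**Figure D1:**
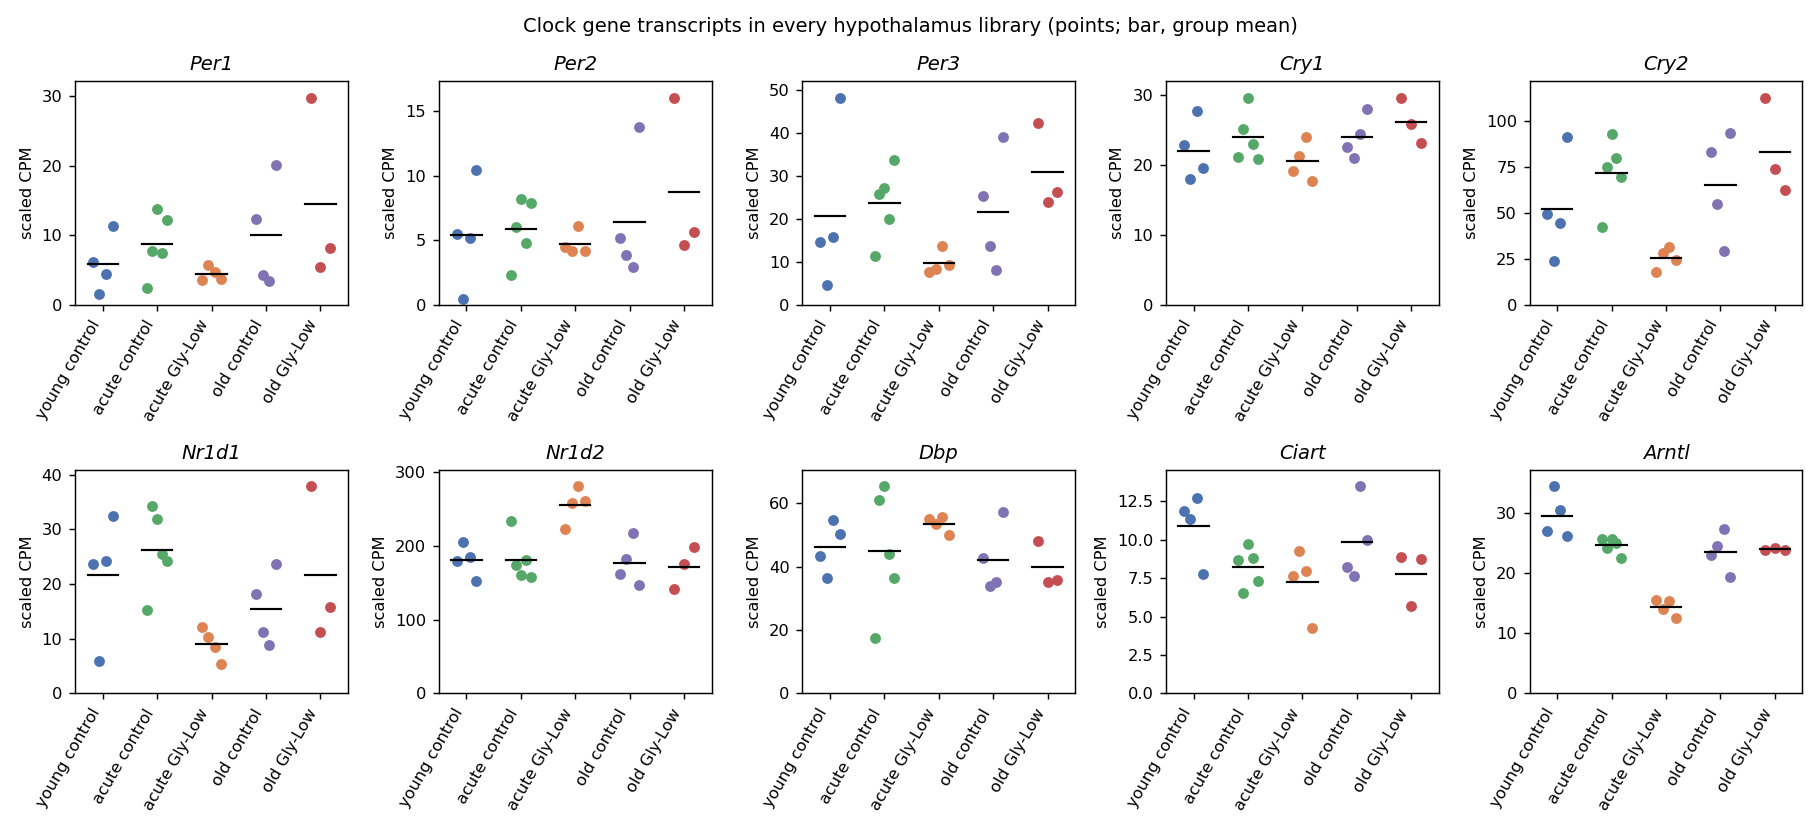
Scaled CPM (vertical axis, from 0) of the 10 clock genes in every library, grouped along the horizontal axis; points are libraries and bars are group means. The acute Gly-Low points of Cry2, Nr1d1 and Arntl lie below all acute control points, while Per1 and Per2 range widely in the young and old groups.

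The libraries differed in make-up. Mitochondrial transcripts took 17.0% to 23.3% of counted reads in acute Gly-Low libraries and 5.35% to 9.11% in acute control, with 15.8% in old control 3 and 17.2% in young control 2. The length slope of a library says how much its log2 CPM, relative to the average library, changes per doubling of transcript length. It was -0.432 to -0.226 in acute Gly-Low and 0.136 to 0.228 in acute control, so long transcripts were under-represented in all 4 acute Gly-Low libraries. The slope was -0.271 to 0.222 in young control, -0.198 to 0.162 in old control and 0.0794 to 0.293 in old Gly-Low. Hypothalamic peptide transcripts were present in all groups (summed CPM of 10 markers, lowest library 499.7). The summed CPM of 8 anterior pituitary markers ran from 8.80 to 61150 among the acute controls and from 43.7 to 221.8 in acute Gly-Low. Of 4 pineal markers, Asmt was at 0 in all 20 libraries, and the summed level was at most 1.10 CPM. Total counts ran from 15848372 to 27399753 per library.

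One week of Gly-Low diet in young mice went with lower transcripts of 5 clock genes and a higher level of 1. Per1, Per3, Cry2, Nr1d1 and Arntl fell and Nr1d2 rose, while Per2, Cry1, Dbp and Ciart did not pass the test. The activator Arntl thus fell together with 4 genes of the repressing limb, although the calls of Per1 and Per3 were lost with an offset for transcript length. These 6 of 10 are to be read against the whole table, in which 10005 of 17161 genes, 58.3%, passed the same test (edgeR quasi-likelihood test, Benjamini-Hochberg adjusted p under 0.05), 27.8% higher and 30.5% lower. The median log2 fold change was -0.53 over the 10 genes and -0.07 over all genes tested.

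Cry2, a cryptochrome repressor, was at 42.5, 74.8, 92.9, 79.6 and 69.6 CPM in acute controls 1 to 5 and at 17.7, 27.9, 31.2 and 24.5 CPM in acute Gly-Low 1 to 4. The groups of Cry2 did not overlap, and for how many of all genes this holds was not computed. Its mean fell from 71.9 ± 18.6 (SD, n = 5) to 25.3 ± 5.78 CPM (SD, n = 4), 2.8-fold lower, with a log2 fold change of -1.49 ± 0.21 (SE, edgeR adjusted p = 2.79e-05). Per3 was at 11.4, 25.8, 27.2, 19.9 and 33.7 CPM in the acute controls and at 7.73, 8.20, 13.6 and 9.25 CPM in acute Gly-Low. Only acute control 1 fell within the range of the diet group. The log2 fold change of Per3 was -1.26 ± 0.27 (SE, edgeR adjusted p = 0.00106). Per1 was at 2.42, 7.68, 13.8, 7.51 and 12.2 CPM in the controls and at 3.53, 5.68, 4.77 and 3.76 CPM in the diet group. Acute control 1 was below all of the diet libraries and the other 4 controls above them. Its log2 fold change of -0.95 ± 0.38 (SE) passed narrowly (edgeR adjusted p = 0.0409), and the call was lost without any 1 of acute controls 3 and 5 or acute Gly-Low 1, 3 and 4, with adjusted p up to 0.105.

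Per2 averaged 5.86 ± 2.42 CPM (SD, n = 5) in acute control and 4.72 ± 0.92 CPM (SD, n = 4) in acute Gly-Low, and its log2 fold change of -0.29 ± 0.32 (SE) had an edgeR adjusted p of 0.438. For Cry1 the means were 24.0 ± 3.60 and 20.6 ± 2.72 CPM, with overlapping groups and a log2 fold change of -0.20 ± 0.15 (SE, edgeR adjusted p = 0.251). The paralogs of each repressor pair therefore gave unlike values, Cry2 against Cry1 and Per3 against Per2, although a difference between paralogs was not itself tested.

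The REV-ERB genes moved in opposite directions. Nr1d1 was at 15.3, 34.3, 31.8, 25.6 and 24.2 CPM in acute controls 1 to 5 and at 12.2, 10.3, 8.55 and 5.31 CPM in acute Gly-Low 1 to 4, with no overlap. It was 2.84-fold lower, with a log2 fold change of -1.51 ± 0.26 (SE, edgeR adjusted p = 0.000155). Nr1d2 was at 234.1, 173.7, 159.9, 180.3 and 157.9 CPM in the controls and at 223, 257.4, 280.4 and 260.4 CPM in the diet group. Acute control 1 was above the lowest diet library, and the other 4 controls were below all of them. The log2 fold change of Nr1d2 was 0.51 ± 0.14 (SE, edgeR adjusted p = 0.00674).

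Arntl, the activator, had the lowest SD within groups of the 10 genes when pooled over the 5 groups (0.14 on the log2 scale). Its level was 25.7, 24.2, 25.7, 25.1 and 22.6 CPM in the acute controls and 15.6, 13.99, 15.4 and 12.6 CPM in acute Gly-Low. The 4 diet libraries were the lowest of all 20, the others running from 19.3 to 34.5 CPM. The fall of 0.76 ± 0.13 on the log2 scale (SE, edgeR adjusted p = 0.000219) kept its direction and its call in all 21 alternative analyses, between -1.13 and -0.58.

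Dbp and Ciart, both driven by BMAL1 in the textbook loop, did not pass the test. Dbp was at 17.6, 61.1, 65.3, 43.9 and 36.5 CPM in the controls and at 55.1, 53.4, 55.7 and 49.8 CPM in the diet group. The diet libraries lay inside the range of the controls and close together. Its log2 fold change was 0.28 ± 0.26 (SE, edgeR adjusted p = 0.381). Ciart averaged 8.21 ± 1.28 CPM (SD, n = 5) in acute control and 7.28 ± 2.14 CPM (SD, n = 4) in acute Gly-Low, with a log2 fold change of -0.16 ± 0.23 (SE, edgeR adjusted p = 0.58). Acute control 1 had the lowest Dbp, Per1, Per2, Per3, Cry2 and Nr1d1 and the highest Nr1d2 of the 5 acute controls. Its length slope (0.14) was like theirs, but its mitochondrial share (9.11%) was the highest of the 5. Its summed CPM of hypothalamic peptides (499.7) and of anterior pituitary markers (8.80) were the lowest of the 5. The part of these differences in its clock gene values was not tested.

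**Figure D2:**
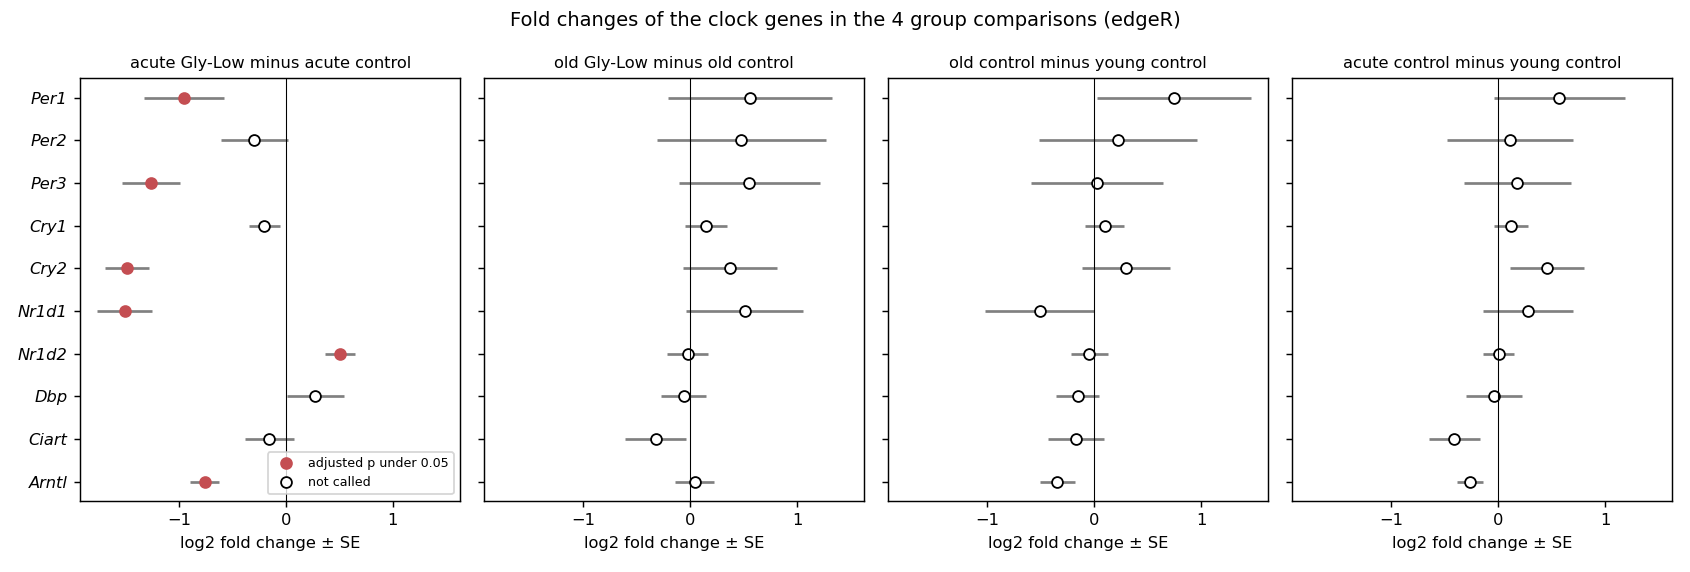
Log2 fold change of each clock gene (horizontal axis, with its SE as bars) in 4 comparisons fitted with edgeR, genes in rows. Filled points have an adjusted p under 0.05: Per1, Per3, Cry2, Nr1d1, Nr1d2 and Arntl under the acute diet, and none in the other panels.

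Over all genes the acute diet fold changes followed transcript length (Spearman rho -0.56 across 17147 genes, which are not independent replicates) and, less, the GC content of transcripts (rho -0.24). The clock genes range from 1252 bases (Dbp) to 5999 bases (Per3) and from 41.8% (Nr1d2) to 59.4% GC (Per1 and Dbp). With an offset that removes each library's trend over transcript length, Per1 came to -0.31 (edgeR adjusted p = 0.473) and Per3 to -0.46 (adjusted p = 0.104) on the log2 scale, both no longer called. An offset for length and GC content together, chosen after seeing the data, put Per1 at 0.09 (adjusted p = 0.778) and Per3 at -0.01 (adjusted p = 0.958), and Per2 was then called higher at 0.98 (adjusted p = 0.00159). Cry2, Nr1d1, Nr1d2 and Arntl kept direction and call under both offsets. Cry2 was at -1.20 and -0.63, Nr1d1 at -1.33 and -0.76, Nr1d2 at 1.12 and 0.57, and Arntl at -0.58 and -0.67 with the length offset and the length and GC offset, in that order. In a fit on all 5 groups with the length slope as a covariate, Arntl was at -1.13 (adjusted p = 0.000238), Per1 (2.04), Per2 (2.36) and Per3 (1.44) were called higher, and Cry2 (0.34), Nr1d1 (0.11) and Nr1d2 (0.05) were not called. Because the length slopes of the acute groups did not overlap, slope and diet cannot be told apart within this arm.

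**Figure D3:**
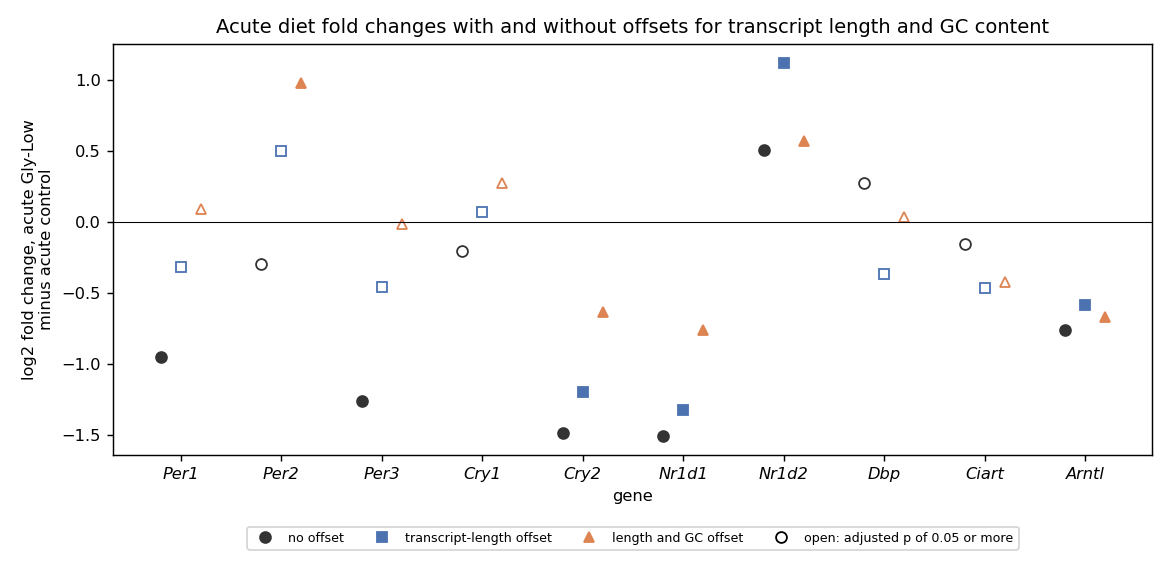
Log2 fold change of each clock gene under the acute diet (vertical axis) with no offset, with an offset for transcript length, and with an offset for length and GC content; filled symbols have an adjusted p under 0.05. Arntl stays between -0.76 and -0.58, Cry2 and Nr1d1 stay below 0, and Per1 and Per3 approach 0.

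Of 23 further clock genes, all tested under the acute diet, 10 fell and 2 rose, with a median log2 fold change of -0.44. The share that passed was near that of all genes (58.3%, with 27.8% higher and 30.5% lower). Gsk3b, a kinase that phosphorylates clock proteins, fell by 1.31 ± 0.14 on the log2 scale (SE, edgeR adjusted p = 2.63e-06). Btrc, a ubiquitin ligase subunit that marks PER proteins for degradation, fell by 1.05 ± 0.12 (adjusted p = 4.71e-06), and Bhlhe40, an E-box repressor also known as DEC1, by 1.26 ± 0.16 (adjusted p = 9.52e-06). Clock, the partner of BMAL1, was at 154.8 ± 38.6 CPM (SD, n = 5) in acute control and 153.9 ± 43.4 CPM (SD, n = 4) in acute Gly-Low, with a log2 fold change of 0.00 ± 0.21 (SE). In the list of 14 genes that feed into the clock or follow it, 4 rose and 4 fell; Adcyap1r1, the receptor for the light-signalling peptide PACAP, fell by 1.46 ± 0.15 (adjusted p = 2.03e-06).

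Per1 and Per2 are also induced by neuronal activity and, for Per1, by glucocorticoids, so those gene lists stand beside them, with 27.8% of all genes higher and 30.5% lower in this comparison. All 9 immediate early genes fell (median log2 fold change -1.80), among them Fos, from 31.9 ± 14.6 (SD, n = 5) to 7.09 ± 2.88 CPM (SD, n = 4). The summed level of the 9 genes was 33.9 to 47.0 CPM in acute Gly-Low. It was 44.8 CPM in acute control 1, within that range, and 117.5 to 178.7 CPM in the other acute controls. Of 8 glucocorticoid targets 4 rose and 0 fell, among them Tsc22d3 at 1.58 ± 0.16 (SE, log2 fold change, edgeR adjusted p = 1.8e-06). Of 7 temperature-responsive genes 1 rose and 3 fell. The gene that rose was Rbm3, an RNA-binding protein induced by mild cold, from 69.98 ± 6.99 (SD, n = 5) to 312.0 ± 16.8 CPM (SD, n = 4). On the log2 scale it rose by 2.17 ± 0.12 (SE, edgeR adjusted p = 1.22e-07).

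Markers of the suprachiasmatic nucleus went both ways, with 4 of 12 higher and 5 lower, where 27.8% of all genes were higher and 30.5% lower. Their summed level ran from 401.8 to 867.8 CPM in acute Gly-Low and from 225.5 to 404.6 CPM in acute control. The largest part of this sum was Avp, which is also among the hypothalamic peptide markers. Avp averaged 405.8 ± 235.4 CPM (SD, n = 4) in acute Gly-Low and 151.0 ± 79.9 CPM (SD, n = 5) in acute control. Vip, a peptide of the light-receiving core, rose by 1.04 ± 0.20 on the log2 scale (SE, edgeR adjusted p = 0.000383), and the receptor gene Vipr2 fell by 1.04 ± 0.26 (adjusted p = 0.00294). In bulk tissue fewer cells of a type and less RNA per cell cannot be told apart. All 6 pituitary markers tested fell (median log2 fold change -3.82). Of 4 endothelial markers 3 fell, and their summed level was 47.8 to 57.2 CPM in acute Gly-Low and 75.1 to 135.9 CPM in acute control. Of 5 striatal markers 3 fell, with summed levels of 24.1 to 30.7 CPM and 34.3 to 53.6 CPM in the same order. Leaving out acute controls 2, 3 and 5, which hold the most pituitary transcripts, left Cry2, Nr1d1 and Arntl called, but Per1 (-0.19, adjusted p = 0.741), Per3 (-0.71, adjusted p = 0.0661) and Nr1d2 (0.28, adjusted p = 0.254) were not, and Dbp was called higher at 0.77 (adjusted p = 0.039). The controls kept there were acute controls 1 and 4 only. Of the acute controls, acute control 1 had the lowest Per1, Per3 and Dbp and the highest Nr1d2. Its Dbp was at 17.6 CPM, against 43.9 CPM in acute control 4. Acute control 4 had 345.7 CPM of pituitary markers, above every acute Gly-Low library. The part of these other genes and cells in the clock gene values was not tested.

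Age gave no call among the clock genes. In old against young controls, 0 of 10 passed, where 0.0328% of 18281 genes did (6 genes, 0.0328% higher and 0% lower), and 0 clock genes had an unadjusted p under 0.05 against 9.1% of all genes. Leaving out any 1 library other than young control 2 gave 0 to 2 genes in all and 0 clock genes. For the Per genes, libraries within each group differed by more than the group means. Per1 was at 6.08, 1.52, 4.48 and 11.3 CPM in young controls 1 to 4 and at 12.4, 4.21, 3.43 and 20.2 CPM in old controls 1 to 4. Both groups thus held low and high libraries, and the log2 fold change was 0.75 ± 0.72 (SE, edgeR adjusted p = 0.808). Per2 was at 5.46, 0.467, 5.15 and 10.5 CPM in the young and at 5.18, 3.83, 2.94 and 13.8 CPM in the old controls. The value in young control 2 rests on 8 reads. Its log2 fold change was 0.22 ± 0.74 (SE). Per3 (0.03 ± 0.61), Cry1 (0.10 ± 0.18), Cry2 (0.30 ± 0.41), Nr1d1 (-0.51 ± 0.51), Nr1d2 (-0.04 ± 0.18), Dbp (-0.15 ± 0.20) and Ciart (-0.17 ± 0.26) did not pass either, on the same scale.

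Arntl was the clock gene with the smallest unadjusted p for age. It was at 27.1, 34.5, 30.6 and 26.2 CPM in young controls 1 to 4 and at 23.1, 24.6, 27.4 and 19.3 CPM in old controls 1 to 4. Of the 4 old libraries, 3 were below all young ones, and old control 3 was within their range. The log2 fold change of -0.34 ± 0.17 (SE) had an edgeR adjusted p of 0.58. None of the 23 further clock genes passed for age; the smallest p was that of Hlf, a relative of Dbp, at -0.45 ± 0.16 (SE, edgeR adjusted p = 0.394).

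Prolonged Gly-Low feeding (5 months) in old mice also gave no call, and these values share the old controls with those for age. Of the clock genes 0 of 10 passed, against 0% of 18281 genes (0% higher and 0% lower); at an unadjusted p under 0.05 there were 0 clock genes and 433 genes in all (2.37%), and DESeq2 called 3 genes in all, none of them a clock gene. Per1 was at 29.8, 5.49 and 8.12 CPM in old Gly-Low 1 to 3, so that 1 library was above and the others within the range of the old controls. Old Gly-Low 1 was also the highest library of its group for Per2 (16.1 CPM against 4.60 and 5.63), Per3 (42.2 against 24.0 and 26.2), Cry2 (112.6 against 73.6 and 62.5) and Nr1d1 (37.9 against 11.3 and 15.8), and it was the lowest for Nr1d2 (141.9 against 175.0 and 197.7). Its length slope of 0.293 was the highest of the 20 libraries. The log2 fold changes were 0.56 ± 0.76 for Per1, 0.48 ± 0.79 for Per2, 0.55 ± 0.66 for Per3, 0.38 ± 0.44 for Cry2 and 0.51 ± 0.55 for Nr1d1 (SE), with edgeR adjusted p-values of 0.953 each.

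Arntl differed little between the old groups. It was at 24.0, 24.2 and 23.9 CPM in old Gly-Low, within the range of the old controls, with a log2 fold change of 0.05 ± 0.18 (SE, edgeR adjusted p = 0.97). Cry1 (0.15 ± 0.20), Nr1d2 (-0.02 ± 0.19), Dbp (-0.06 ± 0.21) and Ciart (-0.32 ± 0.29) had adjusted p-values from 0.953 to 0.985. None of the 23 further clock genes passed, and Hlf again had the smallest p (0.47 ± 0.17, adjusted p = 0.953).

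The control groups of 3 and 4 months, young control and acute control, differed in 5.29% of 19061 genes (0.923% higher and 4.37% lower in acute control) and in 0 of 10 clock genes. The count of 1009 genes rested on single libraries: leaving out any 1 other than acute control 3 moved it, from 0 (without young control 2 or young control 3) through 71 (without acute control 5) to 3957 (without young control 4), and at each of these 0 clock genes passed. Arntl was the member whose groups did not overlap, lower in all 5 acute controls than in all 4 young controls. The share of all genes without overlap here was not computed. The log2 fold change of Arntl was -0.26 ± 0.13 (SE, edgeR adjusted p = 0.242). Ciart (-0.41 ± 0.24, adjusted p = 0.35) and Cry2 (0.46 ± 0.35, adjusted p = 0.496) followed in order of p. With limma-voom and quality weights, 1 clock gene was called here, Cry2 at 0.73 (adjusted p = 0.0113).

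The diet effect in old mice minus that in young mice was tested as an interaction over all 20 libraries, for which 36% of 19061 genes passed (16.8% higher and 19.2% lower). The arms differ in age (25 against 4 months) and in time on the diet (5 months against 1 week). The parts of age and feeding time in this contrast cannot be told apart. Of the clock genes 3 passed, all higher: Cry2 by 1.85 ± 0.53 (SE, log2 scale, edgeR adjusted p = 0.01), Nr1d1 by 2.01 ± 0.64 (adjusted p = 0.0202) and Arntl by 0.80 ± 0.19 (adjusted p = 0.00324). Without old Gly-Low 1, Nr1d1 was at 1.31 (adjusted p = 0.127) and was no longer called. Per3 (1.80 ± 0.76, adjusted p = 0.0717) and Nr1d2 (-0.54 ± 0.22, adjusted p = 0.0622) fell short of the threshold, and both passed without acute control 1 or without old control 4. Nr1d2 also passed without old Gly-Low 3. Without acute controls 2, 3 and 5, Cry2 (1.59, adjusted p = 0.0766) and Nr1d1 (1.63, adjusted p = 0.136) were not called, and with the length offset Arntl was not (0.56, adjusted p = 0.0759). Nr1d2 was called lower with the length offset (-1.38, adjusted p = 0.00847) and with the length and GC offset (-0.63, adjusted p = 0.000751).

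The antiphase of the loop was looked for among libraries of the same group. For each gene the group mean was subtracted from log2 CPM, and deviations were correlated over the 20 libraries with a permutation test within groups, adjusted over 45 pairs. Per, Cry2, Nr1d1 and Dbp varied together. Per1 and Per2 had r = 0.90 (rho = 0.92, adjusted permutation p = 0.000225 for r), Per2 and Per3 r = 0.92 (rho = 0.89) and Per3 and Cry2 r = 0.92 (rho = 0.86). Of the 45 pairs 17 passed with a positive and 10 with a negative r. The share of pairs over all genes that would pass was not computed, here or for the counts below. These counts therefore do not set the clock genes apart.

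Arntl varied against the Per genes and Cry2. Its r was -0.66 with Per1 (rho = -0.59, adjusted permutation p = 0.00581), -0.67 with Per2 (rho = -0.54, adjusted permutation p = 0.00949), -0.73 with Per3 (rho = -0.61, adjusted permutation p = 0.00874) and -0.68 with Cry2 (rho = -0.56, adjusted permutation p = 0.0211). Without the 2 libraries farthest in the other gene these r values were -0.59, -0.52, -0.62 and -0.48. With its own repressor Nr1d1 the r of Arntl was -0.48 (rho = -0.37, adjusted permutation p = 0.104), and with Dbp it was -0.28 (rho = -0.30, permutation p = 0.168, adjusted permutation p = 0.216). Without the 2 libraries farthest in Dbp by the same measure it was -0.41. Nr1d2 went with Arntl (r = 0.56, rho = 0.52, adjusted permutation p = 0.0303) and against Nr1d1 (r = -0.76, rho = -0.82, adjusted permutation p = 0.00145), although Nr1d1 and Nr1d2 are both activated by BMAL1 in the textbook loop.

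These relations had unlike values in the arms, a difference that was not tested. In the 11 libraries of the ageing arm Arntl had r = -0.82 with Per1, -0.82 with Per2, -0.88 with Per3, -0.86 with Cry2, -0.76 with Nr1d1 and -0.71 with Dbp (permutation p from 0.000868 to 0.0518). In the 9 libraries of the acute arm the same values were -0.21, -0.10, -0.23, -0.13, 0.41 and 0.02, with permutation p from 0.331 to 0.945. The Per genes kept their mutual relation in the acute arm, where Per2 and Per3 had r = 0.95 (permutation p = 0.00521).

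**Figure D4:**
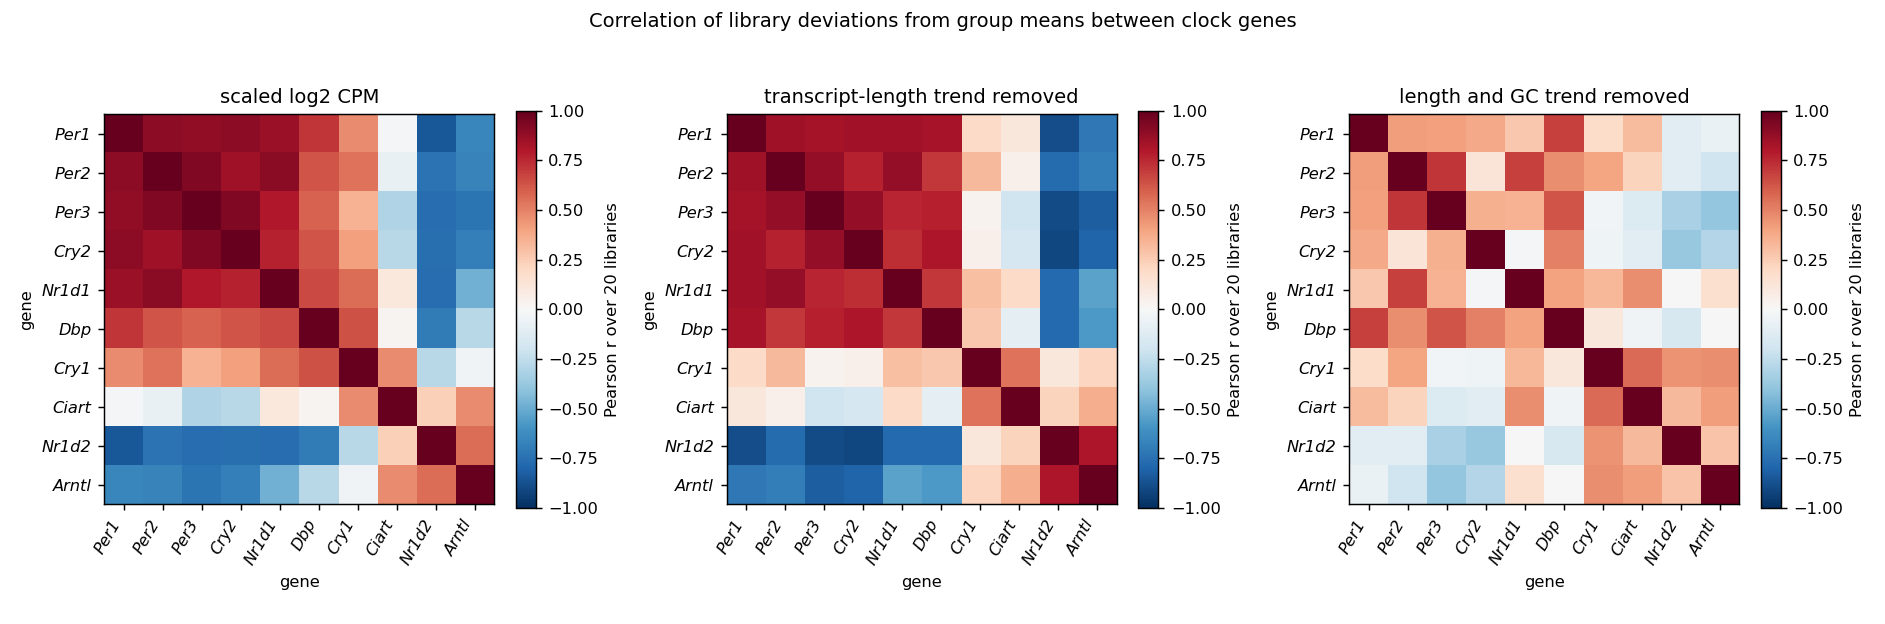
Pearson r between clock genes over 20 libraries (colour, from -1 to 1), from deviations of log2 CPM from group means, as scaled and after removing each library's trend over transcript length or over length and GC content. The blocks of high positive and negative r in the left and middle panels are paler in the right panel, where 0 of 45 pairs pass.

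For some of the genes these deviations followed the length slope of the libraries. Over 20 libraries, slope deviations had r = 0.89 with Per3 (rho = 0.80, adjusted permutation p = 0.0008 over 10 genes), 0.89 with Cry2 (rho = 0.84, adjusted permutation p = 0.0008), 0.77 with Per1 (rho = 0.77, adjusted permutation p = 0.00227) and 0.74 with Per2 (rho = 0.60, adjusted permutation p = 0.0308). Arntl (r = -0.68, rho = -0.57, adjusted permutation p = 0.0308) and Nr1d2 (r = -0.59, rho = -0.54, adjusted permutation p = 0.0297) had the opposite sign. Nr1d1 passed narrowly (r = 0.64, rho = 0.43, adjusted permutation p = 0.0497). Ciart (r = -0.36, adjusted permutation p = 0.184), Dbp (r = 0.30, adjusted permutation p = 0.0908) and Cry1 (r = 0.11, adjusted permutation p = 0.731) did not pass. Without the 2 libraries farthest in slope, r was 0.82 for Per3, 0.82 for Cry2 and -0.56 for Arntl. Within the ageing arm r was 0.94 for Per3, 0.95 for Cry2 and -0.77 for Arntl, and within the acute arm 0.61, 0.60 and -0.36 (permutation p from 0.05 to 0.525). Nr1d1 (r = -0.33, permutation p = 0.449) and Nr1d2 (r = 0.17, permutation p = 0.637) changed sign within the acute arm.

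After each library's trend over transcript length was removed, 17 positive and 11 negative pairs passed, among them Arntl with Dbp (r = -0.57, permutation p = 0.00626, adjusted permutation p = 0.0104). When the trend over length and GC content together was removed, an alternative chosen after seeing the data, 0 of 45 pairs passed. Arntl then had r = -0.07 with Per1, -0.38 with Per3, -0.29 with Cry2 and 0.00 with Dbp, while Per2 and Per3 kept r = 0.72 (permutation p = 0.0148, adjusted permutation p = 0.134) and Per2 and Nr1d1 r = 0.68 (permutation p = 0.00655, adjusted permutation p = 0.104).

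**Figure D5:**
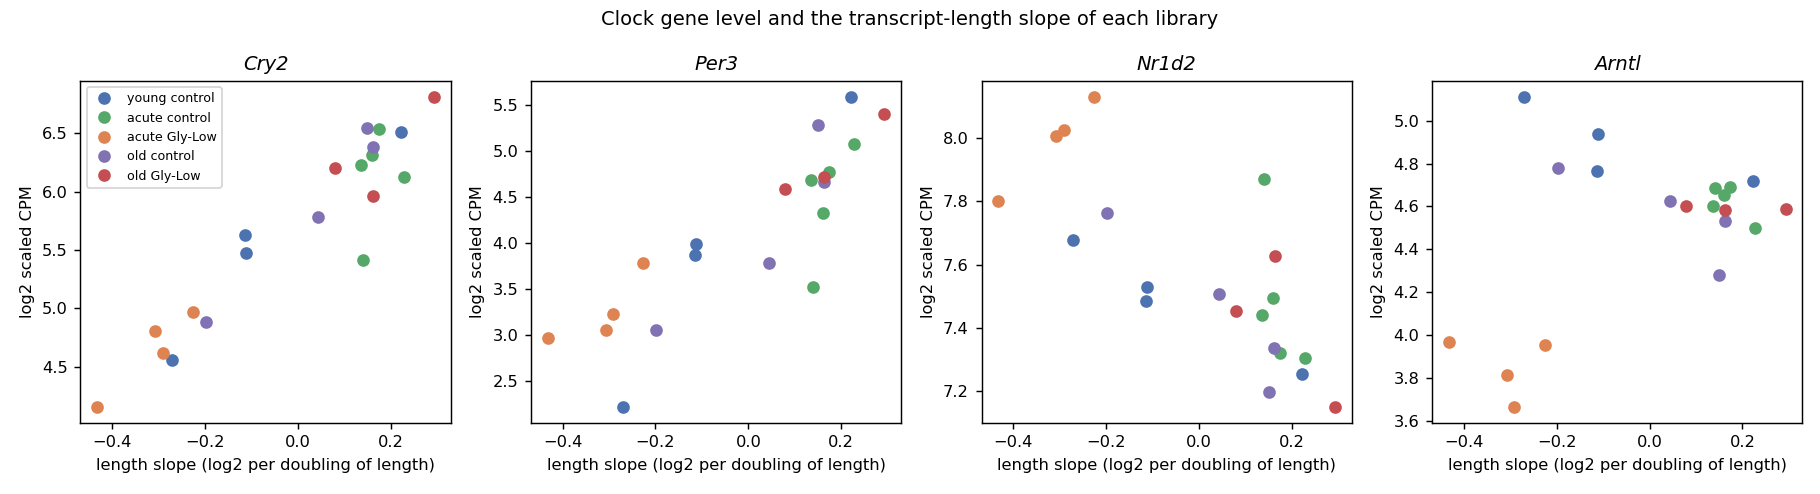
Log2 scaled CPM of Cry2, Per3, Nr1d2 and Arntl (vertical axes) against the length slope of each library (horizontal axis, log2 per doubling of transcript length), one point per library, coloured by group. Cry2 and Per3 rise with the slope in the young and old groups, and Nr1d2 falls. The acute Gly-Low points of Arntl lie below all others. Young control 2, highest in Arntl, has a slope within their range, and the slope of old control 3 lies above that range. Slope and diet cannot be told apart within the acute arm, and the part of the slope in these points was not tested.

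Dbp served as the reference for genes with a like pattern. Over deviations in the 20 libraries, the genes with the highest r with Dbp among 19060 were Pabpn1 (0.95), Cend1 (0.92), Tubg1 (0.91), Gnas (0.91) and Vps72 (0.90), and those with the lowest were Tmem183a (-0.93), Nmt2 (-0.92), Enox2 (-0.92), Cct6a (-0.91) and Wrb (-0.90). No clock gene was among them. Per1 ranked 478th (r = 0.71), Nr1d1 958th, Cry1 1204th, Cry2 1317th, Per2 1405th, Per3 2020th, Ciart 10254th, Arntl 13800th and Nr1d2 17951st (r = -0.70).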

How the data were processed

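RNA sequencing of hypothalamus gave 20 libraries in 5 groups. The authors deposited unnormalized whole-number counts of reads for each gene, made with HISAT2 2.0.5, featureCounts 1.5.0-p3 and build GRCm38, per the submitters' processing notes, which also name DESeq2 1.20.0 and give no roles; neither annotation release nor strand setting is given in the sources used here. Library preparation was non-directional, per the labels' protocols. Symbols, positions and lengths came from GENCODE M21, which matched 54495 of 54532 genes; 21380 genes had no count in any library. The clock genes and the gene lists were chosen with earlier results of these data known. The rule for names takes all 10 clock genes, up to 4 genes with the smallest p of each other list (1 of them is not reported here), and the 5 genes most and least like Dbp; Clock and the marker genes Asmt, Vip and Vipr2 were added after their values were seen.

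After filterByExpr (by group) and TMM scaling of the counts, each comparison was tested with the quasi-likelihood F test of edgeR 4.0.16 (R 4.3.3), with Benjamini-Hochberg adjustment over all genes tested and a threshold of 0.05. The acute diet was fitted on its 9 libraries, age and old diet on the 11 of the ageing arm, and the rest on all 20. Correlations used log2 CPM with a prior count of 2 and 100000 permutations within groups. RPKM used the median transcript length. Alternatives used DESeq2 1.42.0, limma 3.58.1, other scalings, filters and sets of libraries, the replicate block, and length or length and GC offsets. The edgeR test was tested on simulated data for the acute diet, age, old diet and the young groups. Between old control and old Gly-Low, libraries with the same title number deviated together (r from 0.253 to 0.417 over 3 pairs), although 0 of 3 fitted their own number best, and the column names carry other numbers.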

Additional observations from a re-analysis of the deposited data

Results flagged for a closer look

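Among the acute Gly-Low libraries, Per2 was highest in replicate 3, at 6.09 CPM, apart from the other 3 libraries, which lay between 4.13 and 4.44 CPM. The gap took up 0.843 of the group's range. Of 40 combinations of gene and group with 4 or 5 libraries, 1 stood apart in this way, and chance alone gives about 1 in 20.

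The effect of the diet differed between the arms for 3 clock genes by the interaction test in edgeR, which 36% of 19061 genes passed (16.8% higher and 19.2% lower). The effect in old mice minus that in young mice was 1.85 for Cry2 (adjusted p = 0.01), 2.01 for Nr1d1 (adjusted p = 0.0202) and 0.80 for Arntl (adjusted p = 0.00324), on the log2 scale. Each gene was lower in all 4 acute Gly-Low libraries than in all 5 acute controls, and its old groups overlapped. In that acute comparison 58.3% of all genes passed the test, and the share whose groups did not overlap was not computed. The length slopes of the acute groups also did not overlap, while those of the old groups did, and the part of that difference was not tested. Age and time on the diet both differ between the arms and cannot be told apart.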

How the results depend on the processing

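Under the acute diet, the called clock genes kept direction and call in 58 of 72 values from other analyses and in 49 of 54 with 1 library left out. Arntl kept both in every one. With the length slope as a covariate, 3807 genes passed, and Per1 (2.04), Per2 (2.36), Per3 (1.44), Cry2 (0.34) and Nr1d1 (0.11) turned positive; with the length and GC offset Per1 (0.092) and Per2 (0.98) did. The cause was not tested. With the slope as a covariate the interaction between arms also turned for Cry2 (-0.44) and Nr1d1 (-0.13), with 1718 genes and 1 clock gene called. It gave 4431 genes with the length offset, 4506 genes and 1 clock gene without acute controls 2, 3 and 5, and 5 clock genes with limma-voom.

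For age, the 6 genes called became 388 with DESeq2, 3920 with limma-voom, 11 without a filter, 120 in a fit on all 20 libraries, 0 on the 2 groups alone, 17 with the length offset, 298 with the length and GC offset, 413 with the slope as a covariate and 2 without young control 2 and old control 3, and 0 clock genes passed in any. For the old diet DESeq2 called 3 genes. Between the young groups, 1009 genes became 1729 with DESeq2, 6068 (and 1 clock gene) with limma-voom, 3 on the 2 groups alone, 245 with the length offset, 402 without young control 2 and old control 3, and 0 with the slope, with the replicate block or without acute controls 2, 3 and 5.

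Leaving out 1 library at a time gave 9179 to 10794 genes and 5 to 6 clock genes for the acute diet, 0 to 6 genes for age, 0 for the old diet, 0 to 3957 between the young groups, and 5206 to 7561 genes and 2 to 5 clock genes for the interaction. The r of Arntl with Dbp was -0.375 to -0.131 there, 0.018 within the acute arm, -0.57 with the length trend removed and 0.003 with length and GC removed.

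With the replicate block, 5 clock genes passed under the acute diet, as Per1 was lost (-0.62, edgeR adjusted p = 0.15), and 4 in the interaction, where Per3 was gained (2.02, adjusted p = 0.0419). In the old diet comparison the block gave 0 genes and changed no call of a clock gene. Same-numbered libraries of the other comparisons had r from -0.050 to 0.600. For age 2 of 4 pairs fitted their own number best, and the labels give these libraries nothing in common but the number. Clock genes that passed neither in the reported nor in the other analysis differed in sign in 5 values for the acute diet, 8 for age, 17 for the old diet, 24 between the young groups and 15 for the interaction. Per2 rests on 8 to 415 reads per library and Per1 on 26 to 770, which limits what can be detected for them.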
